A study of Mus musculus with 16 samples.

Results

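The Ly49 receptors are lectin-like surface proteins of the mouse natural killer gene complex, which mouse NK cells use much as human NK cells use the KIR family. Most of them bind MHC class I on other cells and hold the NK cell back through a tyrosine motif that recruits the phosphatase Ptpn6, while a few lack that motif, pair with the adaptor Tyrobp and activate the cell. Each NK cell switches on its own subset of the genes, and some memory-phenotype CD8 T cells carry inhibitory members too.

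The 9 genes described here are Klra1, Klra3, Klra4, Klra6, Klra7, Klra8, Klra9, Klra12 and Klra23. They were taken by name, not by a measured value, from the 24495 gene symbols of the deposited tables, in which 11 other symbols begin with Klra. The study itself had already listed Klra7, Klra12 and Klra23 from these libraries, so their patterns are described and not offered as independent evidence.

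The series asks how loss of Aire, which lets thymic epithelium display tissue antigens to developing T cells, combines with PD-1 blockade against a tumor. Female littermates on a C57BL/6 background, 8 weeks old and either Aire+/+ or Aire-/- in all their cells, carried MC38 colon carcinoma tumors and received 5 mg/kg of anti-PD1 antibody (clone RMP1-14) or isotype control (clone 2A3) on day 0 and again on days 3, 7, 10 and 14. Tumors and spleens were taken on day 19, tumors of 4 to 6 mice were pooled for each condition, spleens were pooled as well, and cells sorted as CD45+ or as CD8+ went into droplet RNA sequencing; the sample labels name a kit for the 3′ end of RNA, but a kit for the 5′ end was used where T cell receptors were also read, so the end that each library shows is not certain. This gave 16 libraries, 1 for each of the 4 conditions in each tissue and sort, so no condition has a replicate. Comparisons of tissues or cell types below run over the 4 conditions, which differ in genotype and treatment and stand in for replicates; values of 4 libraries are always given in the order Aire+/+ isotype, Aire+/+ anti-PD1, Aire-/- isotype, Aire-/- anti-PD1.

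The tables hold unique molecular identifiers (UMIs), which count RNA molecules, for 37609 cell barcodes, of which 37453 passed a filter of at least 200 genes and at most 20% mitochondrial UMIs. The CD45+ tumor libraries held 38961020, 28780160, 24658741 and 23286592 UMIs, and the CD8+ tumor libraries 35180747, 27057166, 22421677 and 23278746. The spleen libraries were shallower, with 12181206, 10987970, 11227539 and 12636201 UMIs in the CD45+ sort and 20137112, 19210780, 15624058 and 16286885 in the CD8+ sort. Any 2 libraries shared between 2 and 18 barcodes (median 7 over 120 pairs), and 868 of the 36727 distinct barcodes stood in more than 1 library. Doublets were not called; cells with a marker of another lineage were removed in an alternative instead. As a check of genotype, Aire itself gave 0, 2, 1 and 0 UMIs in the CD45+ tumor libraries, 6, 3, 1 and 0 in the CD8+ tumor libraries, 2, 5, 4 and 0 in the CD45+ spleen libraries and 0 in each CD8+ spleen library. That is 18 UMIs in Aire+/+ and 6 in Aire-/- mice, and a tag outside the deleted part of the gene would check nothing, so these counts do not test the labels.

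NK cells were taken as cells with a UMI of Ncr1 or Klrb1c, both activating NK receptors, and none of Cd3d, Cd3e or Cd3g. The CD45+ spleen libraries gave 84, 49, 56 and 55 of them and the CD45+ tumor libraries 112, 132, 153 and 251. CD8 T cells needed Cd3d, Cd3e or Cd3g together with Cd8a or Cd8b1, and no Cd4 UMI, which gave 654 cells in the CD45+ spleen, 1282 in the CD45+ tumor, 10496 in the CD8+ spleen and 8577 in the CD8+ tumor libraries. The NK label held up against markers outside the rule: Tyrobp was found in 98.4% of splenic and 98.9% of tumor NK cells and Gzma, the granule protease granzyme A, in 91.4% and 79.5%. Cells with a UMI of a B cell, macrophage, monocyte or neutrophil marker were 28 of 244 splenic and 97 of 648 tumor NK cells. Of markers carried by tissue-resident NK cells and type 1 innate lymphoid cells, Itga1 was found in 2.46% of splenic and 27.5% of tumor NK cells, Cd200r1 in 1.23% and 2.01%, and Il7r in 8.20% and 6.64%. Itga1 is not particular to NK cells here, since CD8 T cells of the same sort held it in 1.07% and 25.8%. Tumor NK cells were also deeper, with a median of 9314 UMIs against 4071 in the spleen.

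By the RefSeq annotation of GRCm38.p6, 7 of the 9 genes lie on the minus strand of chromosome 6 within 373842 bases. In order of position these are Klra6 (130013033 to 130026960), Klra4 (130043730 to 130067301), Klra8 (130115226 to 130129898), Klra9 (130178626 to 130194374), Klra7 (130218605 to 130233322), Klra3 (130323289 to 130337626) and Klra1 (130363918 to 130386874). The entry of Klra23 has coordinates outside that cluster that may be those of an alternate locus, so they do not place the gene, and Klra12 has no entry. The C57BL/6 proteins are known as Ly49A (Klra1), Ly49C (Klra3), Ly49F (Klra6), Ly49G (Klra7) and Ly49I (Klra9), all inhibitory, and Ly49D (Klra4) and Ly49H (Klra8), both activating; Ly49H recognises a protein of mouse cytomegalovirus.

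The genes are near-copies of each other, which bears on every count below. Among the 21 pairs of the 7 members with a GENCODE transcript, aligned transcripts were 75.5% to 96.2% identical (median 81.5%), and Klra3 with Klra9 stood highest, at 1191 of 1238 bases. In the last 400 bases, which 3′ libraries read, 33.9% of the 50-base windows of Klra3 stood letter for letter in Klra9 (of the windows of Klra9, 46.4% stood in some other Klra transcript), and 35.3% of those of Klra7 stood in the pseudogene Klra13-ps. Klra8 shared 15.7% of its windows with Klra9 and Klra6 shared 3.13% with a pseudogene, while no such window of Klra1 or Klra4 stood in another Klra transcript of that set. In the first 400 bases, which 5′ libraries read, the shared part was 57.0% for Klra8, nearly all of it with the pseudogene Klra14-ps, and 8.55% for Klra9, 5.70% for Klra3, 3.99% for Klra6, 1.42% for Klra7, 0.285% for Klra4 and 0 for Klra1. The set has no transcript of Klra15, Klra18, Klra19, Klra21 or Klra22, so windows shared with these could not be seen, and RefSeq lists Klra22 as a synonym of Klra1. Klra12 and Klra23 have no transcript in that set either and were compared through their counts alone. Klra12 held 0.143 to 0.609 UMIs for each UMI of Klra23 over all 24 sums of cell class and library (median 0.437), and all 148 splenic NK cells with a Klra12 UMI and 155 of the 171 in tumors also held Klra23. Klra23 kept no such proportion to Klra7, with 0.163 to 7.90 UMIs for each. Counts alone cannot tell how many reads of these genes are exchanged, so Klra12 and Klra23 are given as uncertain in identity and also as sums.

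In the spleen, NK cells carried a dense Ly49 repertoire and CD8 T cells a thin and differently built one. Summed over the 9 members, splenic NK cells held 3738, 3912, 3402 and 4474 UMIs when scaled to 1000000 UMIs of the class (CPM), and CD8 T cells of the same libraries 181, 97.1, 93.0 and 133. The lowest NK library stood above the highest CD8 T library, and the ratio of the means was 30.8 (log2 4.94 ± 0.43, SD over 4 library pairs, a description without a test). Among splenic NK cells Klra23 led with a mean of 929 CPM, then Klra7 (714), Klra8 (525), Klra12 (464), Klra4 (447), Klra9 (432), Klra3 (239), Klra1 (125) and Klra6 (6.36). These are UMIs and not lengths of transcript, and neighbours from Klra23 down to Klra9 overlapped in their library ranges. Below them Klra3 (156 to 353) stayed under Klra9 (379 to 552), Klra1 (87.1 to 147) under Klra3, and Klra6 (0 to 10.9) under Klra1.

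The activating receptors had the largest ratios between the cell types. Klra4 (Ly49D) gave 364, 437, 419 and 567 CPM in splenic NK cells and 0, 0, 0 and 0.785 in splenic CD8 T cells, the last being 1 UMI. Pooled over the libraries this is a ratio of 1894, with an exact counting interval of 338 to 74957; without Aire-/- anti-PD1, which held that UMI, CD8 T cells had 0 UMIs and the interval began at 327. Klra8 (Ly49H) gave 550, 375, 603 and 571 in NK cells and 3.01, 3.03, 0 and 4.71 in CD8 T cells. For both receptors every NK library stood far above every CD8 T library, and the pooled ratio of Klra8 was 191 (109 to 372; 614 UMIs against 12), or 263 (120 to 721) without Aire-/- anti-PD1. Both passed the filter on low counts through the NK cells alone, so they had to differ and no p is given for them.

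Most inhibitory receptors were present in both cell types. Klra7 (Ly49G) gave 584, 1111, 476 and 687 CPM in NK cells and 45.1, 23.3, 20.4 and 7.85 in CD8 T cells. Klra3 (Ly49C) gave 353, 156, 241 and 207 against 3.01, 0, 13.6 and 4.71, and Klra9 (Ly49I) 413, 379, 385 and 552 against 7.02, 2.02, 4.85 and 6.28. None of these ranges overlapped, and the log2 folds were 4.45 ± 0.21 (SE; n = 4 library pairs, edgeR adjusted p 4.3e-17) for Klra7, 4.99 for Klra3 and 5.94 for Klra9, each higher in 4 of 4 pairs. The fold of Klra7 was 5.04 without Aire+/+ isotype and that of Klra3 5.93 without Aire-/- isotype. Klra1 (Ly49A), at 125, 147, 87.1 and 142 against 12, 4.04, 0.969 and 4.71, was higher by 4.07 ± 0.29 with no overlap, or by 4.75 without Aire+/+ isotype, which held 12 of its 23 UMIs in CD8 T cells. The exception was Klra6 (Ly49F), which gave 0, 4.46, 10.1 and 10.9 in NK cells and 8.03, 6.07, 0 and 4.71 in CD8 T cells. These ranges overlapped, and the log2 fold was 0.04 (adjusted p 0.98). Klra1, Klra3 and Klra9 passed the filter on low counts through the NK cells alone, so they had to differ and no p is given for them.

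The pair of uncertain identity was also shared. Klra23 gave 937, 874, 824 and 1080 CPM in NK cells and 64.2, 45.5, 38.8 and 62.0 in CD8 T cells, and Klra12 gave 413, 428, 355 and 658 against 38.1, 13.1, 14.5 and 37.7. In splenic CD8 T cells Klra23 led in each library, and Klra12 came second by the mean although Klra7 stood above it in 3 of 4 libraries. The folds of the pair over CD8 T cells were the smallest of the 8 members that passed, at 13.0 for Klra23 and 13.2 for Klra12. In all, 9 of 9 members passed the filter on low counts and 8 were higher in NK cells, where 13.6% of the 9027 genes tested were higher. Since Klra1, Klra3, Klra4, Klra8 and Klra9 could not have come out otherwise, the count is a description here. For tumors, where Klra4 and Klra8 again could not, it is a description too. Of 11 adaptor and signalling genes 5 were higher in NK cells, Tyrobp among them (log2 6.07), and 2, Zap70 and Lck, were lower (median 0.51). Ptpn6 passed in neither direction. Of the other lectin-like NK receptors 11 of 11 were higher (median log2 fold 4.85, against -0.02 for all tested genes), Klrb1c being left out because it helps to define the NK cells. Without the TMM factor the median of all genes moved from -0.02 to 0.42, and the same number of members, 8, was higher; per cell, with no scaling to the class total, the 8 were higher as well.

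**Figure D1:**
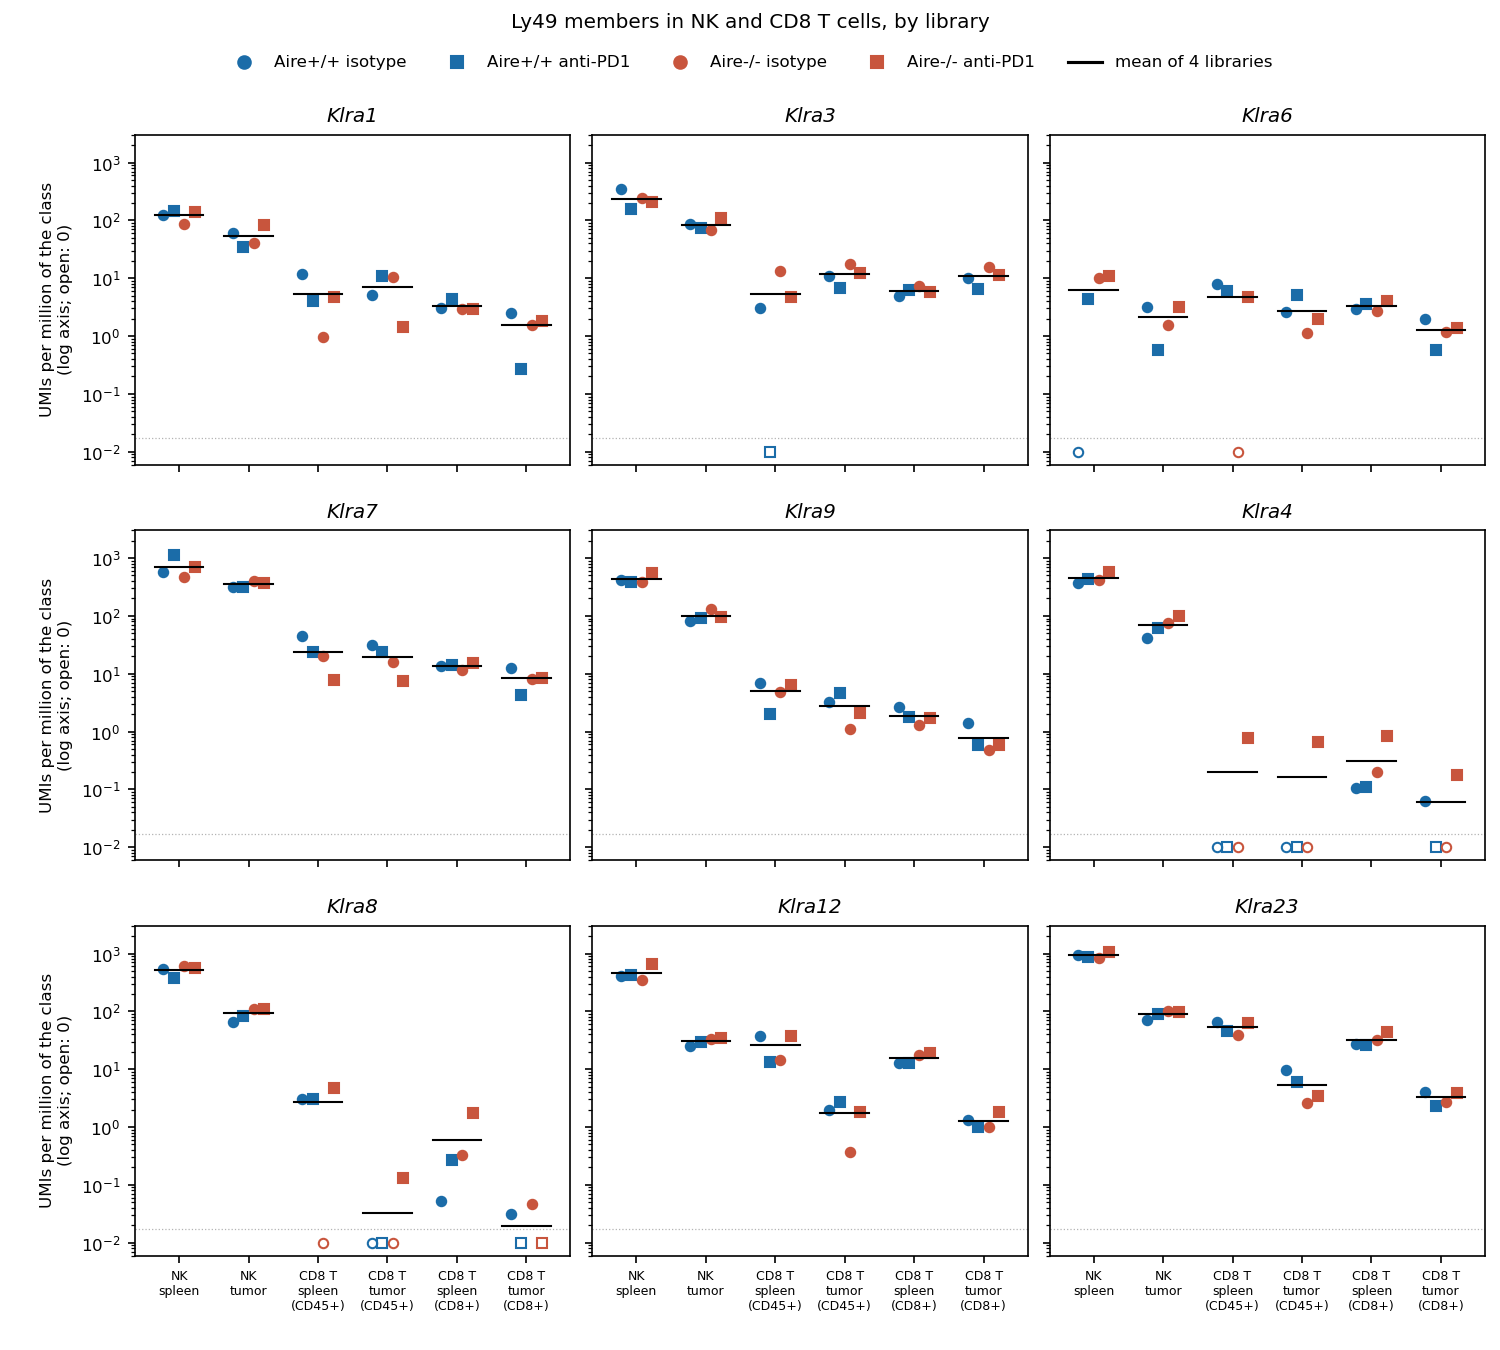
Each panel shows 1 of the 9 Ly49 genes on a logarithmic axis of CPM (UMIs scaled to 1000000 of the cell class), with 1 point for each of the 4 libraries of NK cells and CD8 T cells by tissue and sort and a bar at their mean. Klra4 and Klra8 stand between 364 and 603 in splenic NK cells and at or below 4.71 in every CD8 T library, while Klra6 stays at or below 10.9 everywhere.

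In tumors the same split between NK and CD8 T cells was present at a lower level. The members summed to 754, 778, 971 and 1007 CPM in tumor NK cells and to 65.7, 59.6, 49.5 and 31.4 in CD8 T cells of the same CD45+ libraries. The groups did not overlap, and the ratio of the means was 17.0 (log2 4.09 ± 0.67). Klra7 led in NK cells with 317, 314, 409 and 375, and every other member stayed at or below 134. In CD8 T cells Klra7 (31.9, 23.4, 16.1 and 7.58) had the highest mean and Klra3 (11.1, 6.87, 17.6 and 12.3) the next, but Klra3 stood above Klra7 in both Aire-/- libraries. Klra8 gave 66.7, 84.0, 108 and 112 in NK cells and 1 UMI in all 1282 CD8 T cells, a pooled ratio of 1367 (counting interval 245 to 54061); without Aire-/- anti-PD1, which held that UMI, the interval began at 151. Klra4 gave 40.9, 61.4, 75.1 and 98.7 against 5 UMIs, all of them in the Aire-/- anti-PD1 library (0.653 CPM). All 9 members passed the low-count filter and 8 were higher in NK cells, where 11.2% of 10557 genes were; the smallest fold of the 8 was that of Klra3 (log2 2.88 ± 0.20, adjusted p 3.1e-06), although without Aire-/- anti-PD1 that of Klra1 (2.24, in place of 3.31) was below that of Klra3 (2.67), and Klra6 had a log2 fold of -0.10 (adjusted p 0.94). Of the other lectin receptors, again without Klrb1c, 8 of 11 were higher and 1, Klrc1, was lower in NK cells (median 3.09, all genes -0.01).

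NK cells of the tumor carried less of the family relative to all their UMIs than NK cells of the spleen, and the fitted log2 folds of the 8 that passed ran from -3.50 to -0.55; differences between members were not tested. The sum dropped from a mean of 3882 ± 448 (SD) to 877 ± 130 CPM, by 2.15 ± 0.24 on the log2 scale, in 4 of 4 conditions; per cell, with no scaling for the higher UMI number of tumor NK cells, it dropped by 0.66. Whether that number reflects more RNA or deeper sequencing of the tumor libraries was not tested. Other markers moved as well: the 9 NK markers, all present and led by Gzma, summed to 21726 to 26330 CPM in splenic and 10162 to 13371 in tumor NK cells, and Klrb1c, which helps to define these cells, had 1315 and 368 CPM. The 5 macrophage markers, of which 3 were at 0 in the spleen and none in the tumor (C1qb highest, at 87.1), summed to 0 to 74.0 and 36.3 to 503, and the 6 markers of type 1 innate lymphoid cells to 71.2 to 294 and 220 to 313. The 4 B cell markers were lower in the tumor, with 107 to 629 and 0 to 7.32, and the 3 monocyte markers summed to 803 to 2618 and 555 to 1258. Their part in the lower sum was not tested. Klra12 and Klra23 had the lowest folds. Klra12 gave 25.2, 29.5, 33.4 and 34.3 in tumor NK cells and Klra23 gave 71.7, 89.8, 99.6 and 96.3, far below every splenic library. Their log2 folds were -3.50 ± 0.15 (adjusted p 1.1e-13) and -2.97 ± 0.13 (8.0e-14), and each was lower in 4 of 4 conditions. Summed, the pair had a log2 ratio of -3.54 in CPM and -2.06 per cell, and together with Klra7 and Klra13-ps -2.14 and -0.66. Klra23 went from 1.36 UMIs for each UMI of Klra7 in the spleen to 0.254 in the tumor.

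The activating pair fell together. Klra4 dropped from the splenic values above to 40.9, 61.4, 75.1 and 98.7, and Klra8 to 66.7, 84.0, 108 and 112. Neither range touched that of the spleen, the log2 folds were -2.31 ± 0.14 (adjusted p 1.3e-11) for Klra4 and -2.09 ± 0.14 (6.8e-11) for Klra8, and both were also lower per cell, by -1.23 and -1.03. Pooled, there were 1.21 UMIs of Klra8 for each of Klra4 in the spleen and 1.29 in the tumor, with single libraries from 0.857 to 1.51 and from 1.14 to 1.63.

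For some inhibitory receptors the direction depended on the scale. Klra9 gave 83.1, 90.3, 134 and 95.2 in tumor NK cells, a log2 fold of -1.71 ± 0.15 in CPM (adjusted p 5.4e-09) and -0.63 per cell. Klra3 gave 86.8, 74.1, 68.8 and 110, a log2 fold of -1.08 ± 0.17 (2.4e-05) in CPM but 0.01 per cell, and Klra1 gave 59.8, 34.2, 40.7 and 82.0, a log2 fold of -0.79 ± 0.19 (0.0026) in CPM but 0.30 per cell. For Klra1, Klra3 and Klra9 no tumor library reached a splenic one. Klra7 fell by 0.55 ± 0.16 in CPM (adjusted p 0.013), and per cell its log2 ratio was 0.48, so that its share of all member UMIs in NK cells went from 17.7% to 39.7%. The call of Klra7 rests on 1 pair: without Aire+/+ anti-PD1, whose splenic value of 1111 was the highest, the log2 fold was -0.25 (adjusted p 0.19; over all alternatives the adjusted p ran from 7.7e-05 to 0.19), and it was also lost with DESeq2. Klra6, with 3.15, 0.579, 1.56 and 3.22, did not pass (log2 -1.08 ± 0.84, adjusted p 0.35, and -1.77 to -0.92 with a condition left out).

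All 9 members passed the low-count filter in this comparison and 8 were lower in tumor NK cells, where 13.0% of 9690 genes were lower; the 8 were also lower without the TMM factor, which moved the median of all genes from 0.01 to -0.40, and without cells holding a marker of another lineage. Tumor NK cells with a UMI of Itga1 or Cd200r1 held 518, 665, 757 and 788 CPM of the members, each below the value of its whole library, and no comparison was run without them. Tumor NK cells without an Eomes UMI held 316, 229, 334 and 619 CPM, against 894, 997, 1154 and 1105 in those with one. In the spleen these values were 2931, 2570, 2284 and 3306 against 4266, 4411, 3800 and 4920. No comparison was split by Eomes. Other lectin receptors moved the same way for the most part, with 7 of 11 lower, Klrb1c left out, and 2 higher (median -0.93, all genes 0.01). These 2 are Klrb1b and Klrd1, and Klrd1 was higher through the TMM factor alone (log2 0.38 with it and -0.02 without). Of 11 adaptor and signalling genes 6 were lower, Tyrobp among them, and 1, Ptpn6, was higher (median -0.33). In contrast, 8 of 8 effector genes such as Gzmb and the checkpoint receptor Havcr2 rose (median 3.58), where 1900 of 9690 genes were higher.

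**Figure D2:**
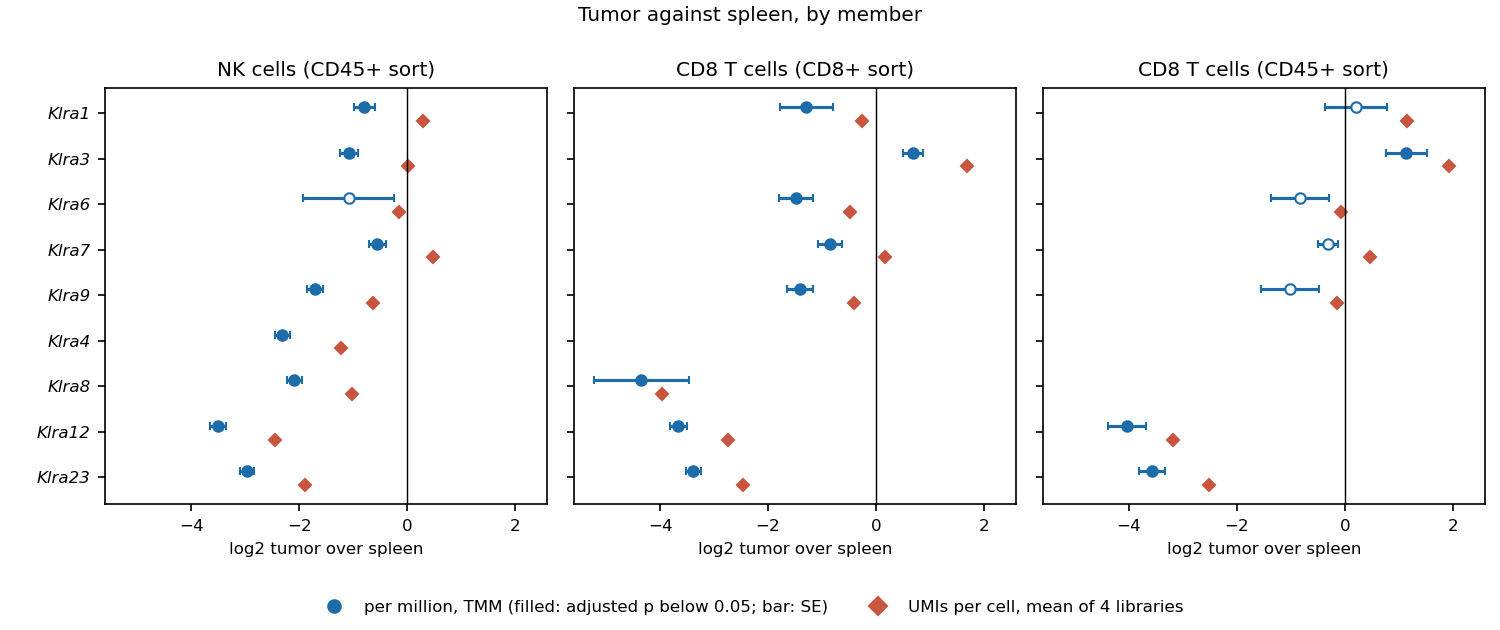
For each Ly49 gene the log2 ratio of tumor to spleen is drawn for NK cells and for CD8 T cells of both sorts, in CPM with TMM factors (circles, filled where the adjusted p is below 0.05, bars are standard errors) and per cell (diamonds). Klra12 and Klra23 lie at or below -2.97 in CPM in all 3 sets and also fall per cell, whereas in NK cells Klra1, Klra3 and Klra7 lie below 0 in CPM and at 0.30, 0.01 and 0.48 per cell, as Klra7 does in CD8 T cells (-0.85 and 0.17 in the CD8+ sort, -0.31 and 0.47 in the CD45+ sort).

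CD8 T cells went through a related shift with 1 member moving the other way. In the CD8+ sort, which held the most cells, the members summed to 68.0, 69.5, 75.6 and 96.1 CPM in the spleen and 33.9, 15.4, 30.5 and 29.4 in the tumor. The tissues did not overlap, and the log2 ratio of the sums was -1.50 ± 0.51, or -0.63 per cell. Markers of other cells moved as well, and their part in the lower sum was not tested. Cells with a lineage marker were 0.886% in the spleen and 10.7% in the tumor. Macrophage markers summed to 0.420 to 2.17 and 9.05 to 42.8 CPM and NK markers to 178 to 684 and 1083 to 2011. B cell markers went the other way, with 26.7 to 35.9 and 2.59 to 4.15. Klra23 fell from 27.7, 26.6, 31.8 and 44.3 to 4.06, 2.29, 2.68 and 3.93, and Klra12 from 12.9, 12.6, 17.4 and 19.2 to 1.30, 1.01, 0.988 and 1.81. These are log2 folds of -3.39 ± 0.14 (adjusted p 4.2e-07) and -3.66 ± 0.15 (3.6e-07), or -2.46 and -2.75 per cell. The CD45+ sort, a second draw from the same mouse pools, gave -3.57 ± 0.24 for Klra23 (7.6e-09) and -4.03 ± 0.35 for Klra12. In that sort Klra12 stood at 13.1 to 38.1 CPM in the spleen and at most at 2.75 in the tumor. It passed the low-count filter through the spleen alone and had to differ, so no p is given for it.

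Klra3 was higher in tumor CD8 T cells. In the CD8+ sort it gave 4.94, 6.22, 7.30 and 5.82 CPM in the spleen and 9.94, 6.41, 15.4 and 11.2 in the tumor, where its mean was the highest of the 9 although Klra7 stood above it in Aire+/+ isotype (12.6). The tumor value was higher in 4 of 4 conditions although the ranges overlapped, since the Aire+/+ anti-PD1 tumor library stood within the splenic range; the log2 fold was 0.69 ± 0.18 (adjusted p 0.0087) and 1.68 per cell. In the CD45+ sort Klra3 gave 3.01, 0, 13.6 and 4.71 in the spleen and 11.1, 6.87, 17.6 and 12.3 in the tumor, a log2 fold of 1.14 ± 0.38 (adjusted p 0.021) that passed in 7 of 11 alternatives, was 1.85 without Aire-/- isotype, and was lost with DESeq2, without a block, and without Aire+/+ isotype or Aire-/- anti-PD1. Klra9, its near-copy, moved against it in the CD8+ sort, from 2.63, 1.79, 1.32 and 1.73 to 1.42, 0.583, 0.471 and 0.574 (log2 -1.41 ± 0.24, adjusted p 9.9e-04, and -0.40 per cell). In the tumor 46 of the 84 UMIs of Klra9 came from Aire+/+ isotype. The pooled UMIs of Klra9 for each UMI of Klra3 went from 0.316 (single libraries 0.180 to 0.532) to 0.0788 (0.0306 to 0.143), against 1.73 and 1.13 in splenic and tumor NK cells. Because reads of the 2 can be swapped, their sum is given too: its log2 ratio of tumor to spleen was 0.53 in the CD8+ and 0.51 in the CD45+ sort, with overlapping ranges, and -1.86 in NK cells, with none.

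The remaining members were scarce in CD8 T cells. In the CD8+ sort Klra7 fell by 0.85 ± 0.23 in CPM (adjusted p 0.011) with a log2 ratio of 0.17 per cell, Klra6 by 1.48 ± 0.31 (0.003) with -0.48 per cell, and Klra1 by 1.29 ± 0.49 (0.041) with -0.25 per cell. Klra1 no longer passed without Aire-/- isotype or without Aire-/- anti-PD1, had a log2 fold of -0.68 without Aire+/+ anti-PD1, and per cell it was higher in the tumor in 2 of 4 conditions. Klra8 gave 38 UMIs in 10496 splenic and 2 in 8577 tumor cells, a pooled ratio of 0.0353 (counting interval 0.00412 to 0.137); 27 of the 38 came from Aire-/- anti-PD1, without which the ratio was 0.121 (0.0130 to 0.554). Without Aire+/+ isotype the ratio was 0.0191, and without Aire-/- isotype its interval was 4.91e-04 to 0.119. Klra4, with 20 and 6 UMIs, did not pass the low-count filter. So 8 of 9 members were tested in the CD8+ sort, 7 were lower, where 38.3% of 12534 genes were lower, and 1 was higher, where 37.1% were; of the 7, Klra8 passed the filter through the spleen alone and had to differ. With so many genes moved between these tissues, the count of members says little beyond the background. In the CD45+ sort 7 members were tested, Klra4 and Klra8 not. Of the 7, 2 were lower (background 24.5% of 10108 genes) and 1 higher (27.6%). Of the 2, Klra12 passed the filter through the spleen alone and had to differ. Klra7 had a log2 fold of -0.31 in CPM (adjusted p 0.18) and 0.47 per cell. Other lectin receptors were higher in tumor CD8 T cells for 8 of 12 genes in the CD8+ sort and lower for 0 (median 1.57, all genes -0.03), while in the CD45+ sort 6 of 11 were higher and 2, Klrc2 and Klrb1f, lower (median 1.71, all genes -0.02). The class I genes H2-K1, H2-D1 and B2m, which encode Ly49 ligands, were higher for 3 of 3 in the CD8+ sort (median 0.57) and in the CD45+ sort (median 0.44).

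The difference between the cell types was tested itself, as the change from spleen to tumor in the gap between NK and CD8 T cells of the CD45+ libraries. By the fit 2 of 9 members passed, Klra3 and Klra8, where 16.6% of 10843 genes did, so the family as a whole did not stand out from the background. For Klra3 the gap narrowed by a log2 fold of -2.12 ± 0.49 (adjusted p 0.0051, and -2.78 without Aire-/- isotype). Relative to all UMIs, Klra3 fell in NK cells and was higher in CD8 T cells. Per cell its log2 ratio of tumor to spleen was 0.01 in NK cells and 1.93 in CD8 T cells of the CD45+ sort. The call of Klra8 rests on 12 UMIs in splenic and 1 in tumor CD8 T cells, too few for a fitted fold, and passed in 5 of 11 alternatives, so it is not taken as a difference. Its pooled ratios of tumor to spleen were 0.182 (0.164 to 0.202) in NK cells and 0.0255 (5.96e-04 to 0.172) in CD8 T cells, with intervals that overlap. Klra12 (0.50 ± 0.39, adjusted p 0.45) and Klra23 (0.65 ± 0.31, 0.18) did not pass, nor did Klra4 (1 and 5 UMIs in splenic and tumor CD8 T cells, so no fold is given), Klra1 (-0.79 ± 0.85, 0.61), Klra9 (-0.61 ± 0.48, 0.46), Klra6 (-0.12 ± 1.20, 0.99) or Klra7 (-0.00). Without the TMM factor the median of all genes moved to -0.48.

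Counted by cells, nearly all splenic NK cells carried the family. To compare cells of unlike depth, each was thinned to 1000 UMIs at random; 83.9% of splenic NK cells then held a member UMI (80.4% to 89.1% over 4 libraries) and 53.5% of tumor NK cells did (46.4% to 62.5%). Unthinned, the shares were 91.4% and 79.1%. Among CD8 T cells the thinned share was 5.48% in the CD45+ spleen, 2.86% in the CD45+ tumor, 3.17% in the CD8+ spleen and 1.86% in the CD8+ tumor, and the unthinned shares were 9.40%, 8.56%, 6.74% and 6.18%. Splenic B cells (0.180% thinned, 0.531% unthinned, median depth 4282 UMIs) and tumor macrophages (0.0333% and 1.43%, median depth 14224), which should lack the receptors, give the background. The CD8 T cell shares stood above it at median depths of 6308, 9286, 6194 and 10037 UMIs in the order given. The mix of members in CD8 T cells also differed from that of NK cells: in tumor CD45+ libraries NK cells held 0.271 UMIs of Klra8 for each of Klra7 and CD8 T cells of the same libraries 0.00498 (counting interval 1.25e-04 to 0.0280).

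**Figure D3:**
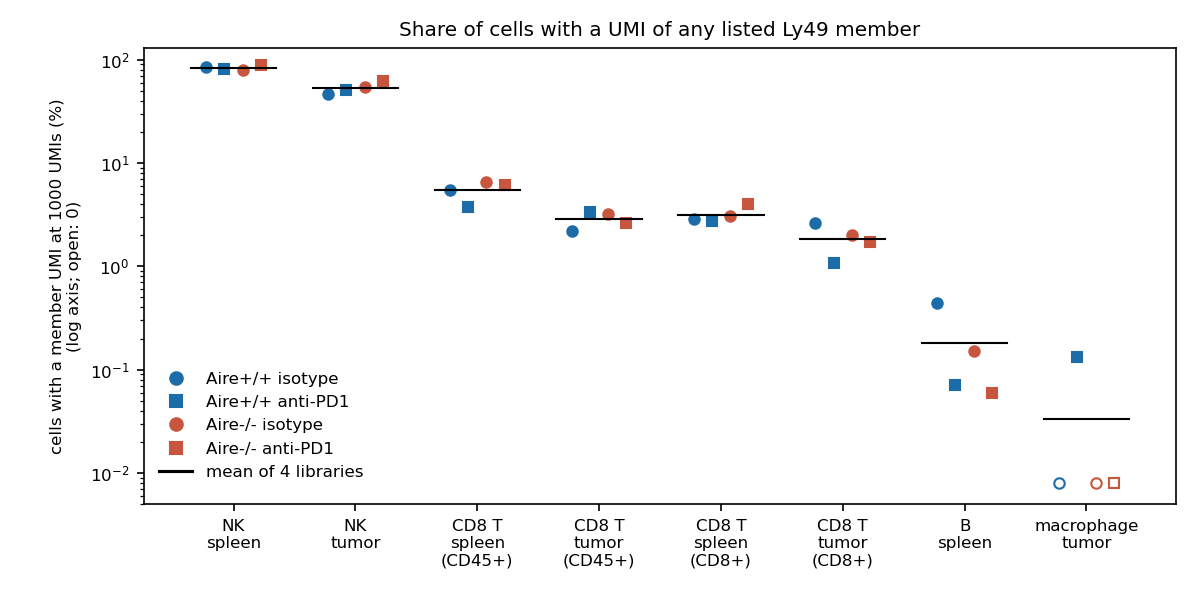
Points give the percentage of cells with at least 1 UMI of a Ly49 member in each of 4 libraries after every cell was thinned to 1000 UMIs, on a logarithmic axis with libraries at 0 drawn at the bottom, and bars give the means. Splenic and tumor NK cells stand at 83.9% and 53.5%, CD8 T cells between 1.86% and 5.48%, splenic B cells at 0.180% and tumor macrophages at 0.0333%.

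Single NK cells carried several members at once. Splenic NK cells with any member held 4.29 of the 9 on average, and 68.8% held 4 or more, against 3.38 and 48.3% in the tumor. Thinned to 1000 UMIs the means were 2.95 and 1.58, with library ranges of 2.73 to 3.23 and 1.47 to 1.65, and 33.7% and 2.79% held 4 or more. In CD8 T cells with a member the mean was 2.21 in the CD8+ spleen and 1.48 in the CD8+ tumor, or 1.38 and 1.10 when thinned. A tumor CD8 T cell of that sort mostly showed 1 member, in 69.0% of cases unthinned and 90.7% thinned, against 28.6% and 68.3% in the spleen. In the CD45+ sort the tumor shares were 54.8% and 80.6%, against 26.2% and 69.4% in the spleen. Its single tumor libraries ran unthinned from 33.3% (Aire+/+ isotype) to 65.0% (Aire-/- isotype). A member without a UMI need not be absent: thinned to 1000 UMIs, 57.7% of tumor NK cells with a member showed 1. Since Klra12 and Klra23 are found together in nearly every cell that holds Klra12, the mean numbers of members above may count 1 receptor as 2.

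**Figure D4:**
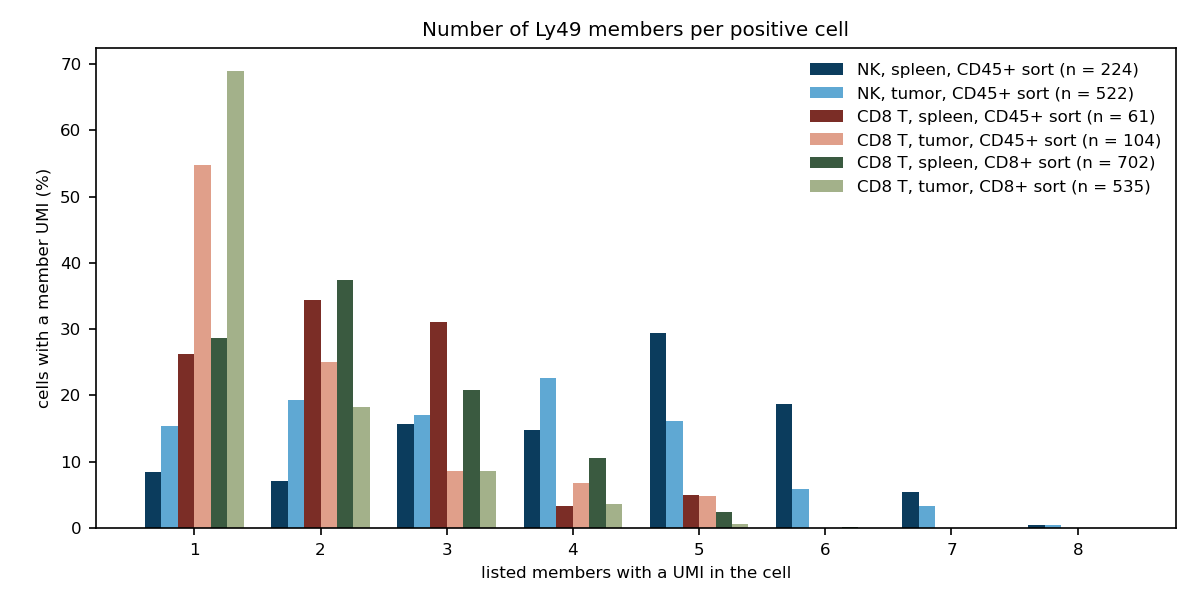
For NK cells and CD8 T cells by tissue and sort, bars give the percentage of member-positive cells that held 1, 2, 3 or more of the 9 Ly49 genes, unthinned and summed over 4 libraries. Splenic NK cells peak at 5 members, and 69.0% of such tumor CD8 T cells in the CD8+ sort hold 1.

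Which splenic CD8 T cells carry these receptors was examined in the CD8+ sort by setting the 702 of 10496 cells with a member UMI against the other cells, within each library and with all Klra genes left out of the test. The cells with a member carried a memory program. Of 12 memory-phenotype genes 10 were higher and 1, the integrin gene Itga4, was lower (median log2 fold 1.82, against -0.02 over all tested genes). Il2rb, which encodes a receptor chain for IL-2 and IL-15, had a mean of 544 CPM against 132, the chemokine receptor Cxcr3 169 against 47.5, and the granzyme Gzmm 140 against 14.9, each higher in 4 of 4 libraries. Of 5 naive-cell genes 4 were lower (median -0.92), with the lymph node homing receptor Ccr7 at 257 against 492 and Igfbp4 at 13.9 against 228. The study had already listed Gzmm and Eomes from these libraries, so their direction is not independent evidence.

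Of 11 regulators of T and NK cell fate 6 were higher and 3 lower (median 0.41); the T-box factors Eomes (139 against 41.5) and Tbx21 (81.2 against 23.8) and the Ikaros-family gene Ikzf2 (38.4 against 8.77) were higher, and Tcf7 (249 against 320) and Lef1 (267 against 490) were lower. Other lectin receptors were higher for 8 of 11 tested (median 1.64), led by Klrc2, which encodes the activating receptor NKG2C, at 21.5 against 0.822. Adaptors were higher for 5 of 10 (median 0.32), with Tyrobp at 19.4 against 4.40, effector genes for 2 of 6 (median 0.28), and the 3 class I ligand genes were lower (median -0.28). Klrc2 was also among the 5 genes with the highest fitted folds. The others, Rbpms, C030029H02Rik, P3h3 and Gata6, stayed at or below 0.292 CPM in cells without a member and passed the filter through the cells with one alone. At the other end Plbd1, Cyp2s1, Mpeg1, Gpr83 and Pdlim4 had 0 UMIs in the cells with a member and passed the filter through the other cells alone, so the fitted folds of these 9 measure no size of change.

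Depth enters this comparison, because a deeper cell shows a member UMI more easily: the median was 8725 UMIs in cells with a member and 6086 in the others. In all, 1845 of 11140 genes passed, 16.6%. After thinning, 346 genes passed and the median of all genes moved to -0.25, the memory genes gave 10 higher and 1 lower again (median 1.61), the naive genes 4 lower (median -1.27), the other lectin receptors 4 of 7 higher, the regulators 2 higher (Eomes and Tbx21) and 2 lower (Tcf7 and Lef1) of 11 with Ikzf2 no longer passing (adjusted p 0.078), the adaptors 1 of 9 and the effector genes 0 of 5. Of the 10 genes named at both ends Klrc2 passed again (log2 5.48, adjusted p 9.7e-10), Cyp2s1 did not (adjusted p 0.52), and the others had too few UMIs left to be tested.

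Genotype and treatment can only be described, since each condition has 1 library; intervals here are exact and cover counting error alone. In tumor NK cells the members summed to more in Aire-/- than in Aire+/+ mice under both antibodies, with the isotype ratio at 1.29 (1.20 to 1.39) and the anti-PD1 ratio at 1.29 (1.21 to 1.38). Per cell the isotype ratio was 1.14. Klra4 and Klra8 took part in both, with ratios of 1.84 and 1.63 under isotype and 1.61 and 1.34 under anti-PD1. Of the 9 members, 6 stood above 1 under isotype and 3, Klra1, Klra3 and Klra6, below. The intervals of 5 lay above 1 and that of 1 below. Under anti-PD1 all 9 stood above 1, 5 of them with their intervals. In the spleen the NK ratios ran apart, 0.910 (0.838 to 0.988) for isotype but 1.14 (1.05 to 1.25) for anti-PD1, and the first became 1.16 per cell.

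In CD8 T cells of the CD8+ sort the tumor of the Aire+/+ anti-PD1 condition stood lowest, with 15.4 CPM against 29.4 to 33.9 in the other 3. The ratio of anti-PD1 to isotype was 0.453 (0.403 to 0.509) in Aire+/+ and 0.964 (0.864 to 1.08) in Aire-/- mice. In the first pair Klra1 went from 81 UMIs to 7 (ratio 0.108, 0.0422 to 0.234), and Klra4 and Klra8, with 2 UMIs and 1 UMI under isotype, had 0 under anti-PD1, too few for a ratio. In the matching CD45+ tumor libraries the ratios were 0.906 (0.693 to 1.19) and 0.634 (0.510 to 0.790), so the second sort of the same pools did not show the same order. Splenic CD8 T cells of the CD8+ sort held more of the family in Aire-/- mice, with ratios of 1.11 (1.02 to 1.20) for isotype and 1.38 (1.28 to 1.49) for anti-PD1, while those of the CD45+ sort gave 0.515 (0.398 to 0.664) and 1.37 (1.06 to 1.78).

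Other Klra genes did not all follow the 9. Klra5 rose in tumor CD8 T cells of the CD8+ sort from 19 to 2005 UMIs (log2 fold 5.95 ± 0.43, adjusted p 7.4e-06), more UMIs than any of the 9 members gave there. In tumor NK cells Klra18 (log2 -1.37), Klra14-ps (-2.66) and Klra13-ps (-1.26) fell. Klra5 (1.95; 344 UMIs against 16) and Klra2 (2.18; 85 against 4) passed as higher there, but their tissue ranges overlapped and Klra5 was higher in 3 of 4 conditions. By the correlation of log2 levels over 16 sums (NK cells of 8 CD45+ and CD8 T cells of 8 CD8+ libraries, among 11378 genes), the genes most like the summed members were Cd9 (r = 0.993), Rnf130 (0.989), Eomes (0.988), Gpc1 (0.987) and Abcg2 (0.987); the sums share libraries and split by cell type and tissue, so these values are a description.

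Promoters of 300 bases around a listed start were in RefSeq (GRCm38.p6) for 7 of the 9 members, all but Klra12 and Klra23. Over the 15 pairs with at least 200 aligned bases identity ran from 76.8% to 96.4% (median 83.3%). A pair of inhibitory genes and the pair of activating genes are printed because the first had calls in opposite directions in tumor CD8 T cells and the second fell together in tumor NK cells. Klra3 and Klra9 were 96.4% identical, with 10 of 281 aligned bases different, and Klra4 and Klra8 were 86.6% identical, with 40 of 299 different. The promoters, all on the minus strand, are chr6:130337577-130337876 for Klra3, chr6:130193063-130193362 for Klra9, chr6:130067222-130067521 for Klra4 and chr6:130129849-130130148 for Klra8; that of Klra9 lies inside the gene as annotated, not at the end of its entry. Within the stretch where a pair aligns, capitals mark the bases that differ from the partner or have none there; the ends that reach past the partner are in lower case.
Klra3: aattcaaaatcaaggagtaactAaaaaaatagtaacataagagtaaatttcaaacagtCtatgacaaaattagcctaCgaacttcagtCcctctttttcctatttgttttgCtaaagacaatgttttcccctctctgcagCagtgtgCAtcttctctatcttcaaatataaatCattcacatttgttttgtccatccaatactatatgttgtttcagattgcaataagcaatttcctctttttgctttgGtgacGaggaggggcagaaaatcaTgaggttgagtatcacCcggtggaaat
Klra9: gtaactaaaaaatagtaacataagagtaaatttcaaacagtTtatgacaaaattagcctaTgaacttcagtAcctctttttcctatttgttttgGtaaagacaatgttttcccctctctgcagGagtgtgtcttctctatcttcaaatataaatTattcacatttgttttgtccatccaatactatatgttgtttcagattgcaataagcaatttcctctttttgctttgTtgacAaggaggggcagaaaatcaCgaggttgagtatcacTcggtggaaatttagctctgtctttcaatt
Klra4: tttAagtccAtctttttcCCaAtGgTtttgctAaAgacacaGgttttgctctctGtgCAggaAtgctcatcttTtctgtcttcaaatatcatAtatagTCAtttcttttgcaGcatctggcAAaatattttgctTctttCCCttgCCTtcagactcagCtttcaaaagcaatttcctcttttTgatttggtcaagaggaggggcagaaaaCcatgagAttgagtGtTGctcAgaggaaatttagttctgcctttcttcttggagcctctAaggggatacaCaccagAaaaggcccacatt
Klra8: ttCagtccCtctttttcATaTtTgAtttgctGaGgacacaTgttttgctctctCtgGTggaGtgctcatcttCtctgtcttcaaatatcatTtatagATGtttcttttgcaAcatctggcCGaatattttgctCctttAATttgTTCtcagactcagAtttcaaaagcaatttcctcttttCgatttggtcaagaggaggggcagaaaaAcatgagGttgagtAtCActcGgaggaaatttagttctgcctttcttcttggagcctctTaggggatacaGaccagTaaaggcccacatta

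Short motifs were searched on both strands of the 7 promoters and of all 32851 promoters in the table. TATAAA stood in Klra3, Klra6, Klra8 and Klra9 and in 13.6% of all promoters. For TCF/LEF factors CTTTGAA and CTTTGTT were searched, of which 10.6% of all promoters held at least 1; CTTTGTT stood in Klra7 and Klra9 and CTTTGAA in none of the 7. In Klra9 the letters lie at bases 226 to 232 and hold 1 of the bases in capitals. The RUNX letters TGTGGT (16.8%) and the T-box letters GGTGTGA (3.98%) stood in Klra1, and the ZEB letters CAGGTG (20.2%) in Klra6. Neither AGATAA, for GATA factors (11.2%), nor TTANNTAA, for NFIL3 (6.00%), stood in any of the 7 windows, no matches overlapped, and a match is a description of letters, not of a site in use.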

How the data were processed

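The deposited tables of UMI counts, made by the authors with Cell Ranger on GRCm38, were used as they stand. Rows of 1 symbol, read as the name up to the first _ sign, were summed, and UMIs of a cell class were summed by library. Tests over library pairs used the edgeR quasi-likelihood fit with condition as block, TMM factors, filterByExpr (minimum count 5, minimum total 15) and Benjamini-Hochberg adjustment over all tested genes at 0.05; a self-test on made-up counts ran first. A member that passed the filter only through the group where it is high had to differ. The members, the gene lists and the comparisons were chosen with earlier results of these data known. CPM are UMIs scaled to 1000000 UMIs of the class, and levels were logged after adding 10 for likeness, over genes with at least 100 UMIs. Intervals are exact, at 95%. Genes named in the text are the members and other Klra symbols, the listed genes, the 5 most like the summed members, and the 5 with the largest fold each way among those that passed between splenic CD8 T cells with and without a member; Ncr1, Gzma and genes of fixed lists serve as cell markers. Where a group held 1 to 3 UMIs, a pooled ratio is given in place of a fitted fold. Cells were thinned by random draws without replacement to 1000 UMIs (2000 as alternative), seed 1. Protein likeness was planned and is not reported here, as protein sequences were not used; Klra12 and Klra23 were left out of the sequence comparisons. Lists of 11 adaptor and signalling genes, 3 ligands, 11 regulators, 12 other lectin receptors, 12 memory-phenotype, 5 naive and 8 tumor effector genes were compared with all tested genes. The list of lectin receptors without Klrb1c, the windows in the first bases of transcripts and the pooled ratios with a condition left out were computed after the other values were seen. Software was Python 3.11.15, numpy 2.4.6, scipy 1.17.1, pandas 2.3.3, matplotlib 3.10.9, Biopython 1.88, R 4.3.3, edgeR 4.0.16 and DESeq2 1.42.0.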

Additional observations from a re-analysis of the deposited data

Results flagged for a closer look

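In 60 groups of 4 libraries, 7 had 1 library far from the other 3, which chance gives in about 1 in 20 groups; that rate does not apply to 3 of the 7, with 3 libraries at 0, where any UMI in the fourth is enough. Klra4 in CD8 T cells of the CD45+ spleen stood at 0.785 CPM (1 UMI) in Aire-/- anti-PD1 and at 0 in the others, and in the CD45+ tumor at 0.653 (5 UMIs) in the same condition and at 0 in the others. Klra8 in CD8 T cells of the CD45+ tumor stood at 0.131 (1 UMI) there and at 0 in the others. In the CD8+ spleen, Klra4 stood at 0.831 (13 UMIs) and Klra8 at 1.73 (27 UMIs) in Aire-/- anti-PD1, with the others at 0.105 to 0.197 and 0.0525 to 0.329, and Klra1 at 4.44 in Aire+/+ anti-PD1, with the others at 2.94 to 3.05. In the CD8+ tumor Klra9 stood at 1.42 (46 UMIs) in Aire+/+ isotype, with the others at 0.471 to 0.583. By a test of the difference itself, the change from spleen to tumor differed between NK and CD8 T cells for Klra3 (log2 -2.12, adjusted p 0.0051). The fit also gave Klra8 (2.46), but on 12 and 1 UMIs in splenic and tumor CD8 T cells and in 5 of 11 alternatives, so it is not taken as a difference.

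Limits: each condition has 1 library of pooled mice, so spread between animals cannot be seen, and the 4 pairs behind each test differ in genotype and treatment. The Aire-/- mice carried a whole-body knockout, and all mice carried 1 transplanted tumor line. NK and CD8 T cells were set by a few marker genes, which end of the RNA was read is not certain, and reads of near-identical Ly49 genes can be swapped, most of all for Klra12 with Klra23 and Klra3 with Klra9. RNA counts do not show surface protein.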

How the results depend on the processing

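Of the alternative results for single members 553 kept their result, 14 were weaker, 3 stronger and 11 turned direction. Of those for the main results 269 kept it, 35 were labelled as moved and 1 as turned. Per cell, the ratio of Aire-/- to Aire+/+ in splenic NK cells under isotype crossed 1. So did that of anti-PD1 to isotype in tumor NK cells of Aire+/+ mice (both below). The cause was not tested for any of the changes.

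With DESeq2 fewer genes passed: 1350 in place of 2522 for NK against CD8 T cells in the spleen, 1419 in place of 2407 in the tumor (1341 to 2289 when 1 condition was left out), 2041 in place of 3158 for tumor against spleen in NK cells, and 1159 in place of 1845 for splenic CD8 T cells with a member, where thinning left 346. For the gap 1 member passed without TMM, 1 with DESeq2 and 1 to 2 with a condition left out, in place of 2, and 3008 genes passed without TMM and 1131 to 1509 with a condition left out, in place of 1798.

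Counted per cell, the summed log2 ratios were 4.48 in place of 4.94 (NK against CD8 T, spleen), and for tumor against spleen -0.66 in place of -2.15 (NK), -0.63 in place of -1.50 (CD8 T, CD8+ sort) and -0.52 in place of -1.29 (CD45+ sort). The ratios of Aire-/- to Aire+/+ per cell were 1.16 in place of 0.910 and 1.25 in place of 1.14 in splenic NK cells under isotype and anti-PD1, 1.14 in place of 1.29 in tumor NK cells under isotype, and 1.65 in place of 1.91 in CD8+ tumor cells under anti-PD1. Those of anti-PD1 to isotype were 1.15 in place of 1.05 in splenic NK cells of Aire+/+ mice, 0.951 in place of 1.03 and 1.13 in place of 1.04 in tumor NK cells of Aire+/+ and Aire-/- mice, and 0.849 in place of 0.964 in CD8+ tumor cells of Aire-/- mice.

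Shares of cells with a member, thinned to 2000 UMIs, were 89.4%, 67.8%, 6.79%, 4.77%, 4.73% and 2.94% (splenic and tumor NK cells, then CD8 T cells of the CD45+ spleen and tumor and the CD8+ spleen and tumor), and unthinned 91.4%, 79.1%, 9.40%, 8.56%, 6.74% and 6.18%.

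Klra6 had no steady direction: its log2 fold of NK against CD8 T cells ran from -0.77 to 0.93 in the spleen (-0.37 without Aire-/- anti-PD1) and from -0.69 to 0.58 in the tumor with a condition left out, was 0.02 there with Cd4 allowed, and its gap ran from -1.17 to 0.59 (0.28 without Aire+/+ anti-PD1). Klra1 in CD8 T cells of the CD45+ sort ran from -0.45 to 0.86 with a condition left out (-0.21 without Aire+/+ anti-PD1), and the gap of Klra7 from -0.27 to 0.45 with a condition left out, with -0.49 without TMM, 0.11 under the NK gate with both genes and 0.01 with Cd4 allowed. With a condition left out the gap of Klra1 ran from -1.71 to -0.01 and that of Klra9 from -0.99 to -0.13. The gap of Klra12 then ran from 0.27 to 0.88 and that of Klra23 from 0.26 to 0.88.

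Calls were lost for Klra7 in tumor NK cells with DESeq2 (log2 -0.55), for Klra1 in CD8 T cells of the CD8+ sort without Aire-/- isotype (-1.37) or Aire-/- anti-PD1 (-1.46), for Klra3 in the CD45+ sort with DESeq2 (1.51), without block (1.11), without Aire+/+ isotype (1.0) or Aire-/- anti-PD1 (1.07) and, on too few UMIs to be read, for the gap of Klra8 in 6 of 11 alternatives. Calls were gained for Klra9 in the CD45+ sort without Aire+/+ anti-PD1 (-1.59) and for the gap of Klra23 without Aire+/+ isotype (0.88) or lineage-marker cells (0.73). With every gene of at least 10 UMIs tested, Klra4 passed as lower in tumor CD8 T cells of the CD8+ sort (-2.26), on 20 splenic and 6 tumor UMIs. Under that setting Klra8 passed as lower in the CD45+ sort, on 12 and 1 UMIs, too few for a fitted fold.

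Without the block on condition 8 members passed for NK against CD8 T cells in each tissue and for tumor against spleen in NK cells, 7 in the CD8+ sort and 2 in the CD45+ sort. That setting was not applied to the gap, and the NK gate with both genes does not bear on comparisons of CD8 T cells alone.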
